A study of Mus musculus with 6 samples.

Results

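The collagen genes of mouse primary lung fibroblasts were measured after exposure to rmCIRBP, the cold-inducible RNA-binding protein CIRBP of the mouse in recombinant form, and after PBS. They were taken as every row of the count table annotated as protein coding whose symbol was Col, a type number, a and a chain number, and there were 44 of these among the 21936 protein-coding genes and 55487 rows in all. The cells came from the lungs of wild-type C57BL/6 mice, were grown in 10% serum, and all were held in 0.1% serum for 24 h beforehand. One group then had rmCIRBP at 1 µg/mL for 24 h (3 libraries) and the other had PBS for 24 h (3 libraries). CIRBP is an RNA-binding protein that, outside the cell, binds and activates Toll-like receptors, TLR4 among them. All libraries were sequenced in 1 batch. Whether the replicates came from separate animals or cultures is not stated in the labels, so p-values measure the spread between these libraries, which may be technical.

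Collagens are extracellular proteins whose chains wind in threes into a triple helix, and each chain is the product of its own gene. Fibrillar collagens (types I, II, III, V, XI, XXIV and XXVII) build the cross-striated fibres that give lung interstitium its strength, with type V and XI chains setting where and how thick a fibril forms. Type IV chains make the sheet of basement membranes, FACIT collagens attach to the surface of fibrils, type VI forms beaded filaments, types VIII and X form hexagonal networks, multiplexins (XV and XVIII) sit at basement membrane zones, and transmembrane collagens remain anchored in the cell. Fibroblasts are the main producers of lung collagen, and excess deposition by them is the hallmark of pulmonary fibrosis.

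Depth was 12105584 to 14262375 counts per library (counting error alone lets up to 3 counts lie behind a 0). Levels are given as CPM, which sets every library to a common total after TMM scaling (trimmed mean of M values), and as CPM per kb of exon where genes are compared. Values of single libraries stand in the order 1, 2, 3 of their group. Of the cell type markers, those of fibroblasts were present, with Pdgfra at 347 to 771 CPM after rmCIRBP and 417 to 434 CPM after PBS, although Lum was at most 2.65 CPM. The 8 fibroblast markers summed to 6889 to 7212 CPM in the rmCIRBP libraries and 8628 to 10758 CPM in the PBS libraries, with Thy1 and Vim lower and Dcn higher by the test described below. Most of this sum was Fbln2, which did not pass, and Vim. Fold changes were positive for Pdgfra, Pdgfrb, Dcn, Lum and Fbln1 and negative for Thy1, Vim and Fbln2, with a median log2 fold change of 0.09. Of the 7 epithelial markers, Ager alone could be tested and did not pass, Krt8 had no count, and Epcam, Cdh1, Sftpc, Sftpb and Krt18 were at most 0.289 CPM in any library. The summed level of 6 smooth muscle markers differed widely between libraries of the same group, at 3821, 8173 and 1576 CPM in rmCIRBP libraries 1, 2 and 3, against 3952, 1872 and 1629.8 CPM in PBS libraries 1, 2 and 3. Most of this sum was Acta2, at 3155, 6275 and 1363 CPM after rmCIRBP, against 2721, 1312 and 1103 CPM after PBS. Myh11, Des, Cnn1, Actg2 and Lmod1 were also highest in rmCIRBP 2 and PBS 1 of their groups.

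Collagen made up a large share of the transcriptome in both groups. The 44 chains together took 4.01%, 3.55% and 3.62% after rmCIRBP, against 4.38%, 4.24% and 3.64% after PBS, as a percent of all counts of the library. The group ranges overlapped, with means of 3.73 ± 0.251% after rmCIRBP and 4.09 ± 0.396% after PBS (SD, n = 3 each). The 95% Wilson interval of the share in rmCIRBP 1, 4.00% to 4.02%, covers counting error only. Per kb, Col1a1 was the most abundant chain, at 1356 ± 191 CPM per kb after rmCIRBP and 1612 ± 219 CPM per kb after PBS (SD, n = 3 each). Col3a1 (671 ± 208 CPM per kb after rmCIRBP and 636 ± 97.0 CPM per kb after PBS), Col5a2 (593 ± 130.0 CPM per kb after rmCIRBP and 613 ± 177 CPM per kb after PBS) and Col1a2 (547 ± 65.4 CPM per kb after rmCIRBP and 707 ± 48.9 CPM per kb after PBS) followed, and after rmCIRBP these neighbours lay within each other's spread. This order depends on the length used, the union of all annotated exons, which can exceed that of a single transcript. It was 12.426 kb for Col1a2 and 6.563 kb for Col1a1. By CPM alone Col1a2 came next after Col1a1 in both groups, at 6802 CPM after rmCIRBP and 8788 CPM after PBS. Col9a1 and Col26a1 had no count in any library. In all, 32 of the 44 chains passed edgeR's filter on low counts and 12 did not.

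**Figure D1:**
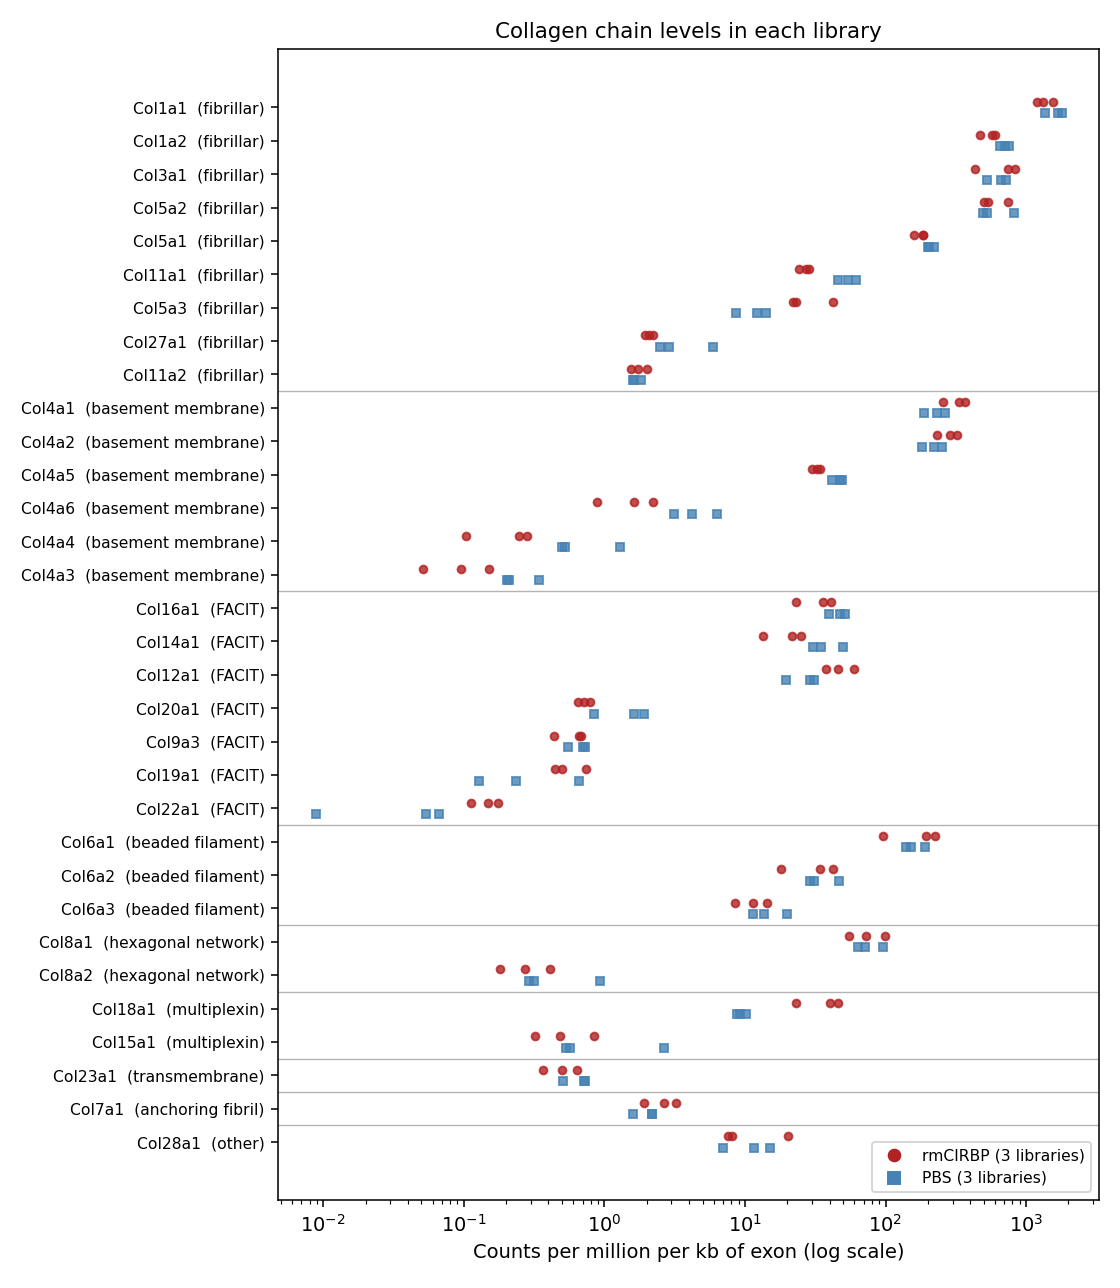
Level of each of the 32 tested collagen chains in each library, in CPM per kb of exon on a log scale, grouped by collagen class and ordered by the PBS mean, with red circles for rmCIRBP and blue squares for PBS. Col1a1 lies highest in both groups, and the Col18a1, Col5a3 and Col12a1 points of rmCIRBP lie to the right of all PBS points.

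Within this collagen pool, 3 of 9 class shares separated the groups, where the values of 34.6% of all single genes did. The shares are parts of 1 whole and depend on each other, so that rate is no matching background for them. Fibrillar chains made up 76.4%, 75.3% and 75.8% after rmCIRBP, against 81.3%, 80.4% and 80.0% after PBS, as a percent of all collagen counts per kb. Type IV chains made up 13.6%, 17.1% and 12.0% after rmCIRBP, against 10.8%, 10.1% and 10.3% after PBS. Multiplexins made up 0.974%, 0.547% and 0.930% after rmCIRBP, against 0.179%, 0.259% and 0.236% after PBS. The groups did not overlap in any of these 3 shares, with fibrillar chains the smaller part and the others the larger part after rmCIRBP. These are summed measures over chosen genes and were not tested. As a percent of all library counts, fibrillar chains overlapped (2.78% to 3.21% after rmCIRBP and 3.04% to 3.70% after PBS), and so did type IV chains (0.360% to 0.509% after rmCIRBP and 0.308% to 0.394% after PBS). Multiplexins did not overlap on that measure either (0.0162% to 0.0328% after rmCIRBP and 0.00646% to 0.00893% after PBS). The type IV share is mostly Col4a1 and Col4a2, which did not pass the test. The share of FACIT chains (2.30 ± 0.186% after rmCIRBP and 2.41 ± 0.315% after PBS) and that of type VI (4.76 ± 1.70% after rmCIRBP and 4.47 ± 0.931% after PBS) overlapped between groups (SD, n = 3 each).

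Single chains moved in both directions while the bulk chains of types I and III did not pass the test. Of 32 chains tested, 3 rose, Col18a1, Col5a3 and Col12a1, and 4 fell, Col11a1, Col4a5, Col4a6 and Col4a4 (edgeR's quasi-likelihood test, Benjamini-Hochberg adjusted p under 0.05 over all 15801 genes tested). Of all genes tested, 6.74% rose and 4.77% fell, 11.5% in all, against 7 of the 32 chains, or 21.9%. With upper quartile scaling, 925 genes rose and 1022 fell, where TMM gave 1065 and 753, and the chains were 2 and 5, with Col12a1 not called and Col14a1 called lower. The median log2 fold change was -0.21 over the 32 chains and -0.01 over all genes, and the median size of the change, whatever its sign, was 0.48 over the chains and 0.28 over all genes on the log2 scale. For 14 of the 32 chains all values of one group lay on one side of the other, 4 higher and 10 lower after rmCIRBP, and the same held for 34.6% of all genes, 17.5% higher and 17.1% lower. Leaving out 1 library left as few as 1 chain called higher and 1 lower, without PBS 2 or PBS 3. It gave 1 and 2 without rmCIRBP 1, 4 and 3 without rmCIRBP 2, 3 and 1 without rmCIRBP 3, and 3 and 4 without PBS 1. Over all genes the counts were 513 and 210 without PBS 2, 582 and 281 without PBS 3, and 539 and 203 without rmCIRBP 1. They were 1015 and 605 without rmCIRBP 2, 839 and 548 without rmCIRBP 3, and 1299 and 845 without PBS 1. From 16174 to 16264 genes were tested in these fits. RNA of whole cultures cannot tell a change in the number of cells of a type from a change in RNA per cell. This holds for every rise and every fall below. The chains that rose were each of a different class, whereas 3 of the 4 that fell were type IV.

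**Figure D2:**
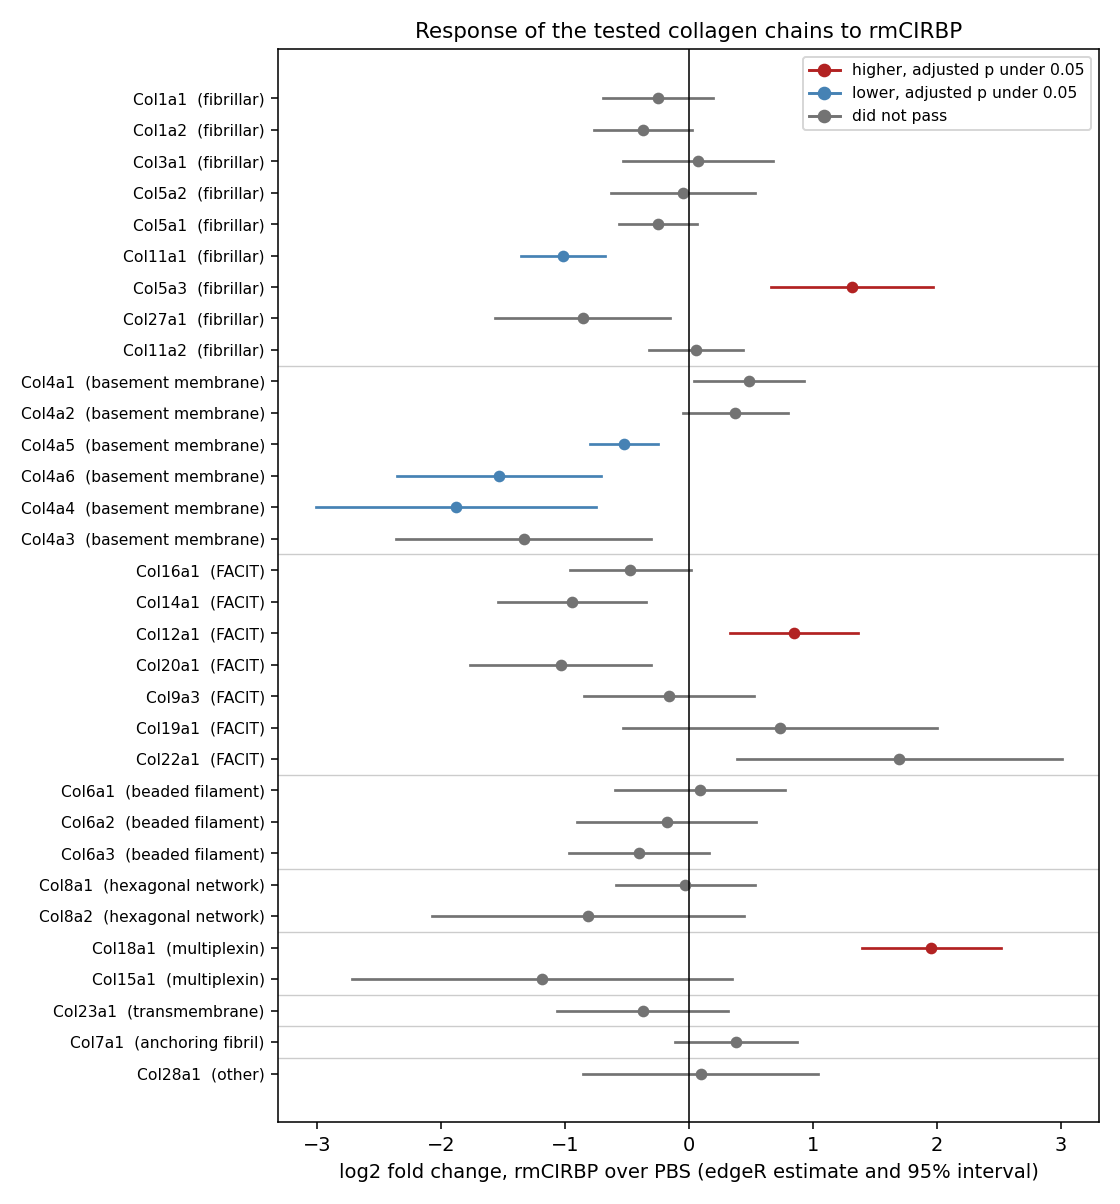
Log2 fold change of rmCIRBP over PBS for the 32 tested collagen chains, with the edgeR estimate as a point and its 95% interval as a line, grouped by class. The intervals are not adjusted over genes while the colours use the adjusted p, so some grey intervals leave out 0. Red marks the 3 chains that rose, blue the 4 that fell and grey the 25 that did not pass, with Col18a1 at 1.96 the highest and Col4a4 at -1.88 the lowest.

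The chains of the major fibrils, the most abundant of all, did not pass the test. Col1a1, the chain that type I collagen holds in greater number (chromosome 11, 94936224 to 94953042, GRCm38), was at 10269, 8606 and 7815 CPM after rmCIRBP, against 11755, 11002 and 8979.6 CPM after PBS. The groups overlapped, with rmCIRBP 1 above PBS 3 (log2 fold change -0.25 with SE 0.19 and edgeR adjusted p = 0.429). The 95% interval of its fold was 0.619 to 1.14 times the PBS level. Col1a2, its partner chain, was at 7409, 5879 and 7118 CPM after rmCIRBP, against 8831, 9372 and 8159.8 CPM after PBS. All 3 rmCIRBP values lay below all PBS values, yet the change did not pass (log2 fold change -0.37 with SE 0.17 and edgeR adjusted p = 0.196, 95% interval 0.590 to 1.02 times). Col3a1, the homotrimeric collagen of compliant tissue, was at 7304, 4279 and 8169 CPM after rmCIRBP, against 6531, 7024 and 5184 CPM after PBS, with rmCIRBP 2 the lowest of all 6 libraries (log2 fold change 0.08 with SE 0.26 and edgeR adjusted p = 0.875, 95% interval 0.694 to 1.60 times). Its sign turned on 1 library, being -0.00157 without rmCIRBP 1, -0.11 without rmCIRBP 3 and -0.0413 without PBS 3.

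Among the chains that control fibril assembly, types V and XI, one rose and one fell. Col5a3, a rarer type V chain that replaces another chain in some type V trimers (chromosome 9, 20770050 to 20815067, GRCm38), was at 286, 149.7 and 158 CPM after rmCIRBP, against 58.6, 96.3 and 83.3 CPM after PBS. On average it rose to 198 ± 76.5 CPM after rmCIRBP, against 79.4 ± 19.2 CPM after PBS (SD, n = 3 each; log2 fold change 1.32 with SE 0.28 and edgeR adjusted p = 0.0241), and rmCIRBP 1 held the highest value. Within each group Col5a3 was lowest in the library with the most smooth muscle marker RNA, rmCIRBP 2 and PBS 1. The part of those markers was not tested. Col11a1, which nucleates fibrils and is best known from cartilage (chromosome 3, 114030540 to 114220718, GRCm38), was at 309, 349 and 366 CPM after rmCIRBP, against 692, 587 and 786 CPM after PBS. Every rmCIRBP library held less than every PBS library (log2 fold change -1.01 with SE 0.15 and edgeR adjusted p = 0.00517). Of the 6 chondrocyte markers, Snorc had no count, Cnmd was at most 0.0735 CPM, Acan at most 0.723 CPM and Matn1 at most 0.163 CPM. Sox9, the one tested, overlapped between groups, at 2.53 to 9.34 CPM after rmCIRBP and 5.41 to 9.93 CPM after PBS, and Matn3 was at 0.147, 0.578 and 0.367 CPM after rmCIRBP, against 1.91, 0.325 and 2.12 CPM after PBS, higher in PBS 1 and PBS 3 than in any rmCIRBP library. Their part in the fall of Col11a1 was not tested. Col2a1, the cartilage fibril chain, had 10 counts in each group. Per kb, the level of Col5a3 was 1.73, 0.803 and 0.809 times that of Col11a1 in rmCIRBP libraries 1, 2 and 3, against 0.158, 0.307 and 0.198 times in PBS libraries 1, 2 and 3. The call of Col5a3 ended in edgeR's test without rmCIRBP 1 (adjusted p = 0.0512), PBS 2 (0.0616) or PBS 3 (0.0853), while that of Col11a1 held without each single library, at adjusted p = 0.00693 to 0.0335.

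The common type V chains did not pass. Col5a1, the main type V chain, was at 1559, 1570.5 and 1345 CPM after rmCIRBP, against 1741, 1884 and 1692 CPM after PBS (log2 fold change -0.25 with SE 0.14 and edgeR adjusted p = 0.269), with all rmCIRBP values below all PBS values. Col5a2, its usual partner, was at 5134, 7118 and 4819.6 CPM after rmCIRBP, against 7830.4, 5061 and 4736 CPM after PBS, and in each group its highest value fell in the library with the most smooth muscle marker RNA, rmCIRBP 2 and PBS 1 (log2 fold change -0.05 with SE 0.25 and edgeR adjusted p = 0.924). Whether these markers play a part in that spread was not tested. Of the other fibrillar chains, Col11a2, a partner of Col11a1, averaged 12.1 ± 1.56 CPM after rmCIRBP and 11.6 ± 0.869 CPM after PBS (edgeR adjusted p = 0.845). Col27a1, a fibrillar collagen of developing cartilage, was at 29.0, 25.4 and 27.2 CPM after rmCIRBP, against 37.7, 77.8 and 32.5 CPM after PBS, and without PBS 2, its one high value, its log2 fold change was -0.36 in place of -0.86 (edgeR adjusted p = 0.198 and 0.111). Other settings did call Col27a1 lower, DESeq2 at adjusted p = 0.0456 and edgeR without a low-count filter at adjusted p = 0.0207. Col24a1, another minor fibrillar chain, was below the filter, with 129 counts over the rmCIRBP libraries and 12 over the PBS libraries. Its levels were 5.37, 0.651 and 3.45 CPM after rmCIRBP, against 0.166, 0.325 and 0.410 CPM after PBS.

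**Figure D3:**
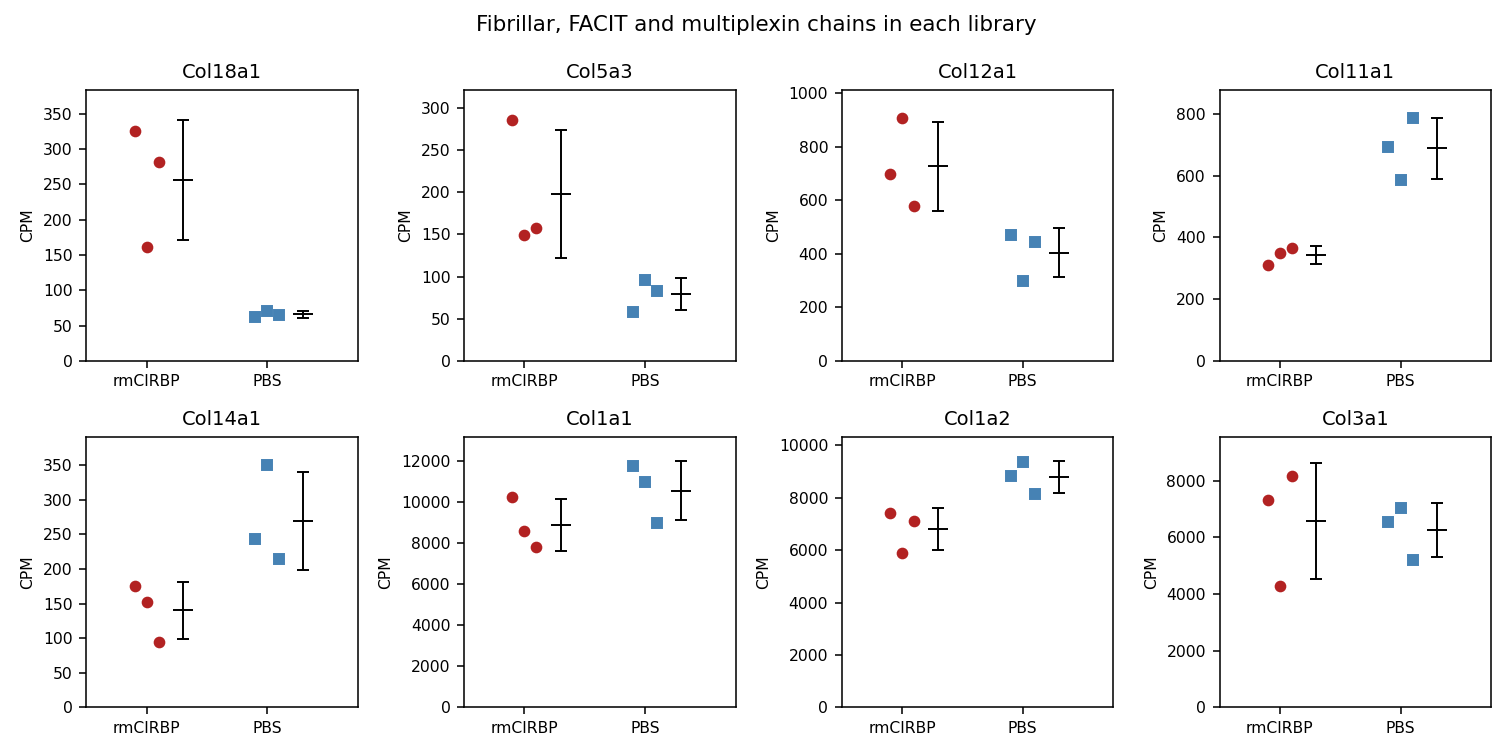
Level in CPM of 8 collagen chains in each library, on axes that start at 0, with red circles for rmCIRBP and blue squares for PBS, and the bar beside each group giving its mean ± SD (n = 3). Col18a1, Col5a3 and Col12a1 lie above all PBS libraries, Col11a1, Col14a1 and Col1a2 below them, and Col1a1 and Col3a1 overlap between groups.

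In the type IV family the sign of the change went by gene pair, although Col4a1, Col4a2 and Col4a3 did not pass the test. Its 6 genes lie as 3 head-to-head pairs on different chromosomes, Col4a1 with Col4a2 (chromosome 8, the genes overlapping by 22 bp), Col4a4 with Col4a3 (chromosome 1, 71 bp apart) and Col4a6 with Col4a5 (chromosome X, 1308 bp apart), so that the genes of a pair point away from each other. Col4a1 and Col4a2 chains form the trimer found in basement membranes everywhere, Col4a3, Col4a4 and Col4a5 that of the glomerulus and alveolus, and Col4a5 with Col4a6 that of smooth muscle and some epithelia. RefSeq gives the promoter windows of 5 of the 6 (GRCm38.p6, 250 bases before to 50 after the start), shown 5′ to 3′ on the strand of each gene because both genes of each pair had changes of the same sign. Capitals mark GC boxes (GGGCGG, either strand) and CCAAT boxes (CCAAT, either strand), which nowhere overlap in these windows. The windows are chr8:11312777-11313076, minus strand, for Col4a1, chr8:11312555-11312854, plus strand, for Col4a2, chrX:141475169-141475468, plus strand, for Col4a5, chrX:141474027-141474326, minus strand, for Col4a6, and chr1:82586800-82587099, minus strand, for Col4a4.
Col4a1 promoter: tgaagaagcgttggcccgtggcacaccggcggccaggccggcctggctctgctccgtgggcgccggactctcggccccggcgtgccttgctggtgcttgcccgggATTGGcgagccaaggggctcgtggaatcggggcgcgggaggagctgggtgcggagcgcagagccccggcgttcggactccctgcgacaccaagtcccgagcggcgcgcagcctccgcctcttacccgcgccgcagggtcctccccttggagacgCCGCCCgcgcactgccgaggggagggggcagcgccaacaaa
Col4a2 promoter: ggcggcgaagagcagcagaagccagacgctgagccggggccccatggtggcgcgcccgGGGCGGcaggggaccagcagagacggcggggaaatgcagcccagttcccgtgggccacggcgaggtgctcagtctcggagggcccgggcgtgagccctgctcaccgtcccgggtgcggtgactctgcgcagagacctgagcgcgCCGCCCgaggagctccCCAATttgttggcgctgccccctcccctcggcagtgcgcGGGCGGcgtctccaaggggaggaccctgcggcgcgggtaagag
Col4a5 promoter: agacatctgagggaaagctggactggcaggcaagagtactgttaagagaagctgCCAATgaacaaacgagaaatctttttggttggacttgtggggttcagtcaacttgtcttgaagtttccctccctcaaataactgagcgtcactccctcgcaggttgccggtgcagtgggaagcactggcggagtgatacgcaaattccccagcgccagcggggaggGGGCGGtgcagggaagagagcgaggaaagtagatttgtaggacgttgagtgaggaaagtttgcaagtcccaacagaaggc
Col4a6 promoter: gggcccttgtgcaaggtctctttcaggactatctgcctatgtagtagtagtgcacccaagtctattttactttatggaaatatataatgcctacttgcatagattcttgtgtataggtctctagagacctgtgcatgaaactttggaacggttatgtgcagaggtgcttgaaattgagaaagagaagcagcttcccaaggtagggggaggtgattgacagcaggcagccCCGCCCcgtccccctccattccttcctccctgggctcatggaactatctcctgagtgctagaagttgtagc
Col4a4 promoter: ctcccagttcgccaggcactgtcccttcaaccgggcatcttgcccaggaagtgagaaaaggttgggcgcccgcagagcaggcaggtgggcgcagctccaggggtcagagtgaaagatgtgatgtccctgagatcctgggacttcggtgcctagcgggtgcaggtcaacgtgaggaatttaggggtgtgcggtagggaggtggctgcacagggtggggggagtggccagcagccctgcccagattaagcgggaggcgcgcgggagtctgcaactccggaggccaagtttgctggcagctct
The Col4a1 and Col4a2 windows share 78 bases, read on opposite strands, and the Col4a4 window holds neither motif. A GC box was found in 35.7% and a CCAAT box in 37.4% of all 32851 promoter windows, and in 23 and 13 of the 38 collagen windows. The part of these promoters in the changes of the type IV chains was not tested.

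The ubiquitous pair leaned upward without passing. Col4a1 (chromosome 8, 11198423 to 11312826, GRCm38) was at 2492, 2747 and 1917 CPM after rmCIRBP, against 1970.1, 1734 and 1413 CPM after PBS, with PBS 1 above rmCIRBP 3 (log2 fold change 0.48 with SE 0.19 and edgeR adjusted p = 0.144). Col4a2 (chromosome 8, 11312805 to 11449287, GRCm38) was at 1915, 2140.3 and 1546 CPM after rmCIRBP, against 1667, 1455 and 1197 CPM after PBS (log2 fold change 0.38 with SE 0.18 and edgeR adjusted p = 0.221). The 95% intervals of the fold, which are not adjusted over genes, were 1.03 to 1.90 times and 0.967 to 1.74 times the PBS level. In both genes rmCIRBP 2 and PBS 1 were the highest libraries of their groups, as they were for the smooth muscle markers, and the part of those markers was not tested. Without these 2 libraries the log2 fold change of Col4a1 was 0.49 and that of Col4a2 0.39, an alternative chosen after seeing the data. The other type IV chains were lower in every rmCIRBP library than in every PBS library.

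Col4a5 (chromosome X, 141475385 to 141689234, GRCm38) was at 201, 228 and 217 CPM after rmCIRBP, against 319.5, 277 and 331 CPM after PBS. It fell to 216 ± 13.4 CPM after rmCIRBP, against 309 ± 28.2 CPM after PBS (SD, n = 3 each; log2 fold change -0.52 with SE 0.12 and edgeR adjusted p = 0.0289). Its neighbour Col4a6 (chromosome X, 141165403 to 141474076, GRCm38) was lower in level and fell too, with 17.6, 7.01 and 13.0 CPM after rmCIRBP, against 25.0, 33.4 and 50.2 CPM after PBS (log2 fold change -1.53 with SE 0.36 and edgeR adjusted p = 0.0318). The lowest PBS library of Col4a6 held more than the highest rmCIRBP library. Within each group Col4a6 was lowest in rmCIRBP 2 and PBS 1, the libraries with the highest smooth muscle markers, whose part was not tested. Col4a4 (chromosome 1, 82448423 to 82586849, GRCm38) was at low level and fell as well, with 1.10, 2.60 and 3.01 CPM after rmCIRBP, against 5.32, 5.61 and 13.7 CPM after PBS (log2 fold change -1.88 with SE 0.49 and edgeR adjusted p = 0.0456), PBS 3 holding by far the highest value. Its neighbour Col4a3 did not pass, with 0.515, 1.52 and 0.953 CPM after rmCIRBP, against 2.08, 2.03 and 3.42 CPM after PBS (log2 fold change -1.33 with SE 0.45 and edgeR adjusted p = 0.0944). Col4a3 and Col4a4 rest on 41 and 92 counts over the rmCIRBP libraries, against 100 and 334 counts over the PBS libraries, and part of Col4a3's exons (563 bp) overlaps a gene on the other strand. Together the 4 genes of these 2 pairs made up 4.94%, 4.85% and 6.53% after rmCIRBP, against 9.07%, 9.28% and 13.4% after PBS, as a percent of type IV counts per kb. The level of Col4a1 per kb was 7.96 to 11.1 times that of Col4a5 after rmCIRBP and 3.84 to 5.62 times after PBS.

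The calls of these 3 chains depended on single libraries, while the direction held without any one of them. In edgeR's test the call of Col4a5 ended without rmCIRBP 1 (adjusted p = 0.123), rmCIRBP 3 (0.0688), PBS 1 (0.0575), PBS 2 (0.0572) or PBS 3 (0.109), that of Col4a6 without rmCIRBP 3 (0.0670), PBS 2 (0.0935) or PBS 3 (0.111), and that of Col4a4 without any library but PBS 1 (0.123, 0.0655 and 0.0609 without rmCIRBP 1, 2 and 3, 0.0838 and 0.145 without PBS 2 and 3). Of the markers of other cells that make type IV chains, some lists were lower after rmCIRBP and others were not. The 5 endothelial markers summed to 4.41 to 7.21 CPM in the rmCIRBP libraries and 19.0 to 25.9 CPM in the PBS libraries, of which Kdr and Tek, the ones tested, fell, while Tie1 had no count and Pecam1 and Cdh5 were at most 0.416 CPM. The 5 mesothelial markers summed to 3.81 to 10.1 CPM in the rmCIRBP libraries and 10.4 to 16.7 CPM in the PBS libraries, of which 3 were tested and Upk3b fell. The 4 pericyte markers, a sum carried by Notch3, came to 35.7 to 61.9 CPM in the rmCIRBP libraries and 66.0 to 109.7 CPM in the PBS libraries. Of these Cspg4 fell, while Rgs5 had the opposite sign, at 4.19, 2.24 and 2.79 CPM after rmCIRBP, against 0.915, 1.30 and 1.44 CPM after PBS, just outside the threshold (log2 fold change 1.32 with edgeR adjusted p = 0.0514). None of the 6 smooth muscle markers passed, with a median log2 fold change of 0.19, and neither did Ager, the one epithelial marker tested (0.40). The part of any of these cells in the falls of the type IV chains was not tested.

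**Figure D4:**
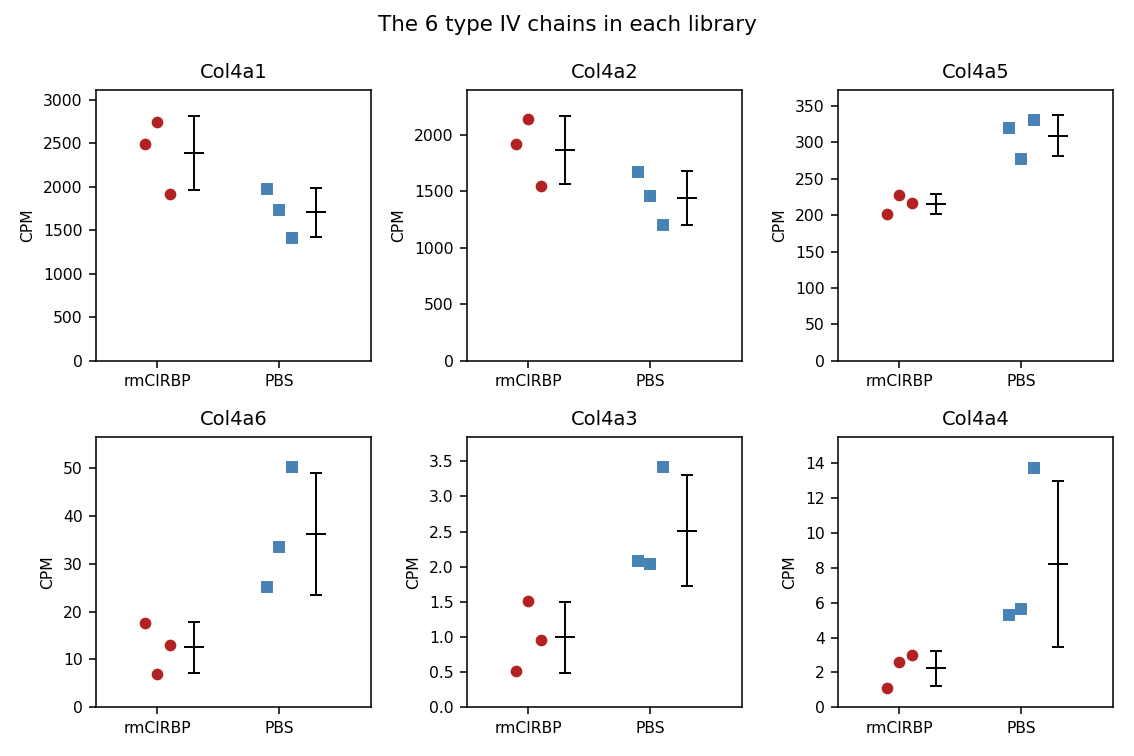
Level in CPM of the 6 type IV collagen chains in each library, on axes that start at 0, with red circles for rmCIRBP, blue squares for PBS and a bar for the mean ± SD (n = 3) beside each group. Col4a1 and Col4a2 overlap between the groups and lean higher after rmCIRBP, and the other 4 chains are lower in every rmCIRBP library than in every PBS library.

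The largest rise among the tested chains was in a multiplexin. Col18a1, a basement membrane proteoglycan whose end fragment is endostatin (chromosome 10, 77052178 to 77166548, GRCm38), was at 325, 161 and 282 CPM after rmCIRBP, against 62.0, 71.1 and 64.8 CPM after PBS. It rose to 256 ± 84.9 CPM after rmCIRBP, against 66.0 ± 4.68 CPM after PBS (SD, n = 3 each), a 3.88-fold change with a 95% interval of 2.63 to 5.73 (log2 fold change 1.96 with SE 0.24 and edgeR adjusted p = 0.00263). PBS libraries lay close together. Within each group Col18a1 was lowest in the library with the highest smooth muscle markers, rmCIRBP 2 and PBS 1. The part of those markers was not tested. The call held without each single library (edgeR adjusted p = 2.59e-05 to 0.0190). RefSeq's table gives Col18a1 2 start sites, and counts per gene do not tell them apart. Both RefSeq windows are shown for that reason, with GC and CCAAT boxes in capitals as above, the upstream one at chr10:77166481-77166780, minus strand, and the downstream one at chr10:77113656-77113955, minus strand.
Col18a1 upstream promoter: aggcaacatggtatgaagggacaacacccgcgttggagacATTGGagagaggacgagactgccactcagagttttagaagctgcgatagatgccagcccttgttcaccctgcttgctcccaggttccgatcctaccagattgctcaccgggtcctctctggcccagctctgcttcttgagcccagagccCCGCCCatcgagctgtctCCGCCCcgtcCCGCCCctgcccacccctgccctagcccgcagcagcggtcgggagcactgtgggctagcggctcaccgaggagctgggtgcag
Col18a1 downstream promoter: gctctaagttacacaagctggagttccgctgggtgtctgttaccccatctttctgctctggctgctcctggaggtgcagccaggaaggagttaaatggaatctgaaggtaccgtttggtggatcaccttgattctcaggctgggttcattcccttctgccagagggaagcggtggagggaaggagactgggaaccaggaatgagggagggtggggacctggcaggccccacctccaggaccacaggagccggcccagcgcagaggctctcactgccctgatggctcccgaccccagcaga
The upstream window holds 3 GC boxes and 1 CCAAT box and the downstream window 0 of either. Col15a1, the other multiplexin, was far lower and did not pass, at 5.37, 2.02 and 3.08 CPM after rmCIRBP, against 3.41, 16.8 and 3.62 CPM after PBS (log2 fold change -1.18 with SE 0.66 and edgeR adjusted p = 0.284), and without PBS 2, its one high value, its log2 fold change was -0.0025.

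The 2 FACIT chains best known for decorating type I fibrils lay on opposite sides of the PBS level. Col12a1, which binds fibrils in tissues under load (chromosome 9, 79598991 to 79718831, GRCm38), was at 698, 906 and 577 CPM after rmCIRBP, against 469, 299 and 445 CPM after PBS. It rose to 727 ± 166 CPM after rmCIRBP, against 404 ± 91.8 CPM after PBS (SD, n = 3 each; log2 fold change 0.85 with SE 0.22 and edgeR adjusted p = 0.0479), and every rmCIRBP library held more than every PBS library. Within each group Col12a1 was highest in the library with the highest smooth muscle markers, rmCIRBP 2 and PBS 1. The part of those markers was not tested. Col14a1, a close relative that regulates fibril growth, was at 175, 152 and 94.6 CPM after rmCIRBP, against 244, 349.8 and 215 CPM after PBS. It lay just outside the threshold (log2 fold change -0.94 with SE 0.26 and edgeR adjusted p = 0.0546), with every rmCIRBP library below every PBS library, and DESeq2 called it lower (adjusted p = 0.00564). Per kb, the ratio of Col12a1 to Col14a1 was 1.84, 2.74 and 2.81 after rmCIRBP, against 0.884, 0.394 and 0.952 after PBS. The call of Col12a1 ended with scaling by library size (edgeR adjusted p = 0.0523) or upper quartile (0.0597), and without any 1 library but rmCIRBP 3 (0.114 and 0.0860 without rmCIRBP 1 and 2, 0.0515, 0.143 and 0.114 without PBS 1, 2 and 3).

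Of the remaining FACIT chains none passed. Col16a1, a collagen of fibrillin-rich microfibrils, was at 241, 156 and 274 CPM after rmCIRBP, against 266, 346 and 321 CPM after PBS, overlapping between groups (log2 fold change -0.47 with SE 0.21 and edgeR adjusted p = 0.185). Col20a1, at 3.68 ± 0.359 CPM after rmCIRBP and 7.52 ± 2.86 CPM after PBS, a FACIT relative, was lower in every rmCIRBP library than in every PBS library (edgeR adjusted p = 0.0750, and 0.0273 by DESeq2). Col22a1, a collagen of tissue junctions, was higher in every rmCIRBP library than in every PBS library, on 55 counts over the rmCIRBP libraries, against 16 over the PBS libraries (edgeR adjusted p = 0.0943). Col19a1 and Col9a3 were at most 5.13 CPM (edgeR adjusted p = 0.417 and 0.759). Col19a1 was called higher without PBS 1, its highest PBS library (edgeR adjusted p = 0.0476).

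Type VI collagen, a beaded filament around cells, did not pass and varied within groups. Col6a1 was at 851, 417 and 983 CPM after rmCIRBP, against 611, 842 and 662 CPM after PBS, with rmCIRBP 2 the lowest of all (log2 fold change 0.09 with SE 0.30 and edgeR adjusted p = 0.871, 95% interval 0.661 to 1.71 times). Col6a2, which lies beside it on chromosome 10, was at 287, 151 and 349 CPM after rmCIRBP, against 242, 392 and 258 CPM after PBS, again lowest in rmCIRBP 2 (log2 fold change -0.18 with SE 0.31 and edgeR adjusted p = 0.745). Col6a3, the long chain of the trimer, was at 171, 137 and 101 CPM after rmCIRBP, against 137, 237 and 164 CPM after PBS, highest in PBS 2 (log2 fold change -0.40 with SE 0.24 and edgeR adjusted p = 0.321). Col6a1 and Col6a2 were lowest in the library of each group with the highest smooth muscle markers, rmCIRBP 2 and PBS 1, and the part of those markers was not tested. Col6a4, Col6a5 and Col6a6, which can stand in for Col6a3 and lie in a row on chromosome 9, were below the filter, with summed counts of 33, 14 and 103 in rmCIRBP libraries 1, 2 and 3, against 7, 11 and 3 in PBS libraries 1, 2 and 3. Most of these counts lay in rmCIRBP 3. With no filter on low counts, edgeR called Col6a6 (adjusted p = 0.00773), Col6a5 (0.0421) and Col24a1 (0.00123) higher, and the test of Col6a5 rests on 49 counts over the rmCIRBP libraries, against 5 over the PBS libraries.

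Chains of the other classes did not pass. Col8a1, of the hexagonal network under endothelium and in remodelling vessels, was at 565, 428 and 777 CPM after rmCIRBP, against 748, 497 and 558 CPM after PBS, with rmCIRBP 3 the highest and rmCIRBP 2 the lowest (log2 fold change -0.03 with SE 0.24 and edgeR adjusted p = 0.954). Its partner Col8a2 was at 1.84, 1.23 and 0.806 CPM after rmCIRBP, against 1.41, 4.15 and 1.30 CPM after PBS, PBS 2 apart from the rest (edgeR adjusted p = 0.365). Col7a1, the anchoring fibril chain of skin, was at 33.1, 27.4 and 19.7 CPM after rmCIRBP, against 22.6, 16.4 and 22.4 CPM after PBS, with PBS 1 and PBS 3 above rmCIRBP 3 (edgeR adjusted p = 0.280). Col28a1, a collagen with von Willebrand factor domains known from peripheral nerve, was at 39.4, 37.4 and 99.1 CPM after rmCIRBP, against 73.6, 34.3 and 56.8 CPM after PBS (edgeR adjusted p = 0.903), with rmCIRBP 3 the highest. Of the transmembrane chains only Col23a1 could be tested, at 2.10 to 3.67 CPM after rmCIRBP and 2.91 to 4.15 CPM after PBS, and its groups overlapped (log2 fold change -0.37 with SE 0.30 and edgeR adjusted p = 0.446). Col13a1, Col17a1 and Col25a1 were at most 0.814 CPM. The other chains below the filter, Col2a1, Col9a2 and Col10a1, were at most 1.78 CPM.

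Chains that share a trimer were compared as the log2 ratio of their counts within each library, which needs no scaling between libraries. Of 8 pairs, the 2 groups separated in 4, where 34.6% of single genes did. The share among ratios of other gene pairs was not worked out. Col5a1 over Col5a3 was 2.45, 3.39 and 3.09 after rmCIRBP, against 4.89, 4.29 and 4.34 after PBS, a difference of -1.53. Col11a1 over Col5a1, whose products can mix in hybrid fibrils, was -2.33, -2.17 and -1.88 after rmCIRBP, against -1.33, -1.68 and -1.11 after PBS, a difference of -0.75. The ratios use the same counts as the changes of Col5a3 and Col11a1 above and are no separate evidence of them.

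The other separated pairs differed by less. Col4a1 over Col4a2 was 0.38, 0.36 and 0.31 after rmCIRBP, against 0.24, 0.25 and 0.24 after PBS, so that the ratio of these head-to-head neighbours was 0.11 higher after rmCIRBP, with an SD of 0.0358 after rmCIRBP and 0.00732 after PBS (n = 3 each). Col6a1 over Col6a2 was 1.57, 1.47 and 1.49 after rmCIRBP, against 1.34, 1.11 and 1.36 after PBS, a difference of 0.24, while each gene alone overlapped between the groups. For each of the 4 pairs the exact two-sided permutation p was 0.1, the smallest that 3 against 3 allows, and 0.2 adjusted over the 8 pairs. Col1a1 over Col1a2 overlapped, at 0.47, 0.55 and 0.13 after rmCIRBP, against 0.41, 0.23 and 0.14 after PBS (exact permutation p = 0.500). Col5a1 over Col5a2, Col6a1 over Col6a3 and Col8a1 over Col8a2 overlapped too, with exact permutation p = 0.500, 0.600 and 0.600, and differences of -0.22, 0.41 and 0.64. These differences rested on single libraries. That of Col1a1 over Col1a2, 0.12 with all libraries, was 0.0815, 0.0421 and 0.25 without rmCIRBP 1, 2 and 3, and 0.20 and 0.0631 without PBS 1 and 3. That of Col5a1 over Col5a2 was -0.0873 without rmCIRBP 2 and -0.46, -0.0867 and -0.12 without PBS 1, 2 and 3. Col6a1 over Col6a3 gave 0.80 without rmCIRBP 2 and -0.0335 without rmCIRBP 3. Col8a1 over Col8a2 gave 0.12 without rmCIRBP 3, and 1.05 and -0.0237 without PBS 1 and 2. Of the separated pairs, Col6a1 over Col6a2 gave 0.16 without PBS 2.

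**Figure D5:**
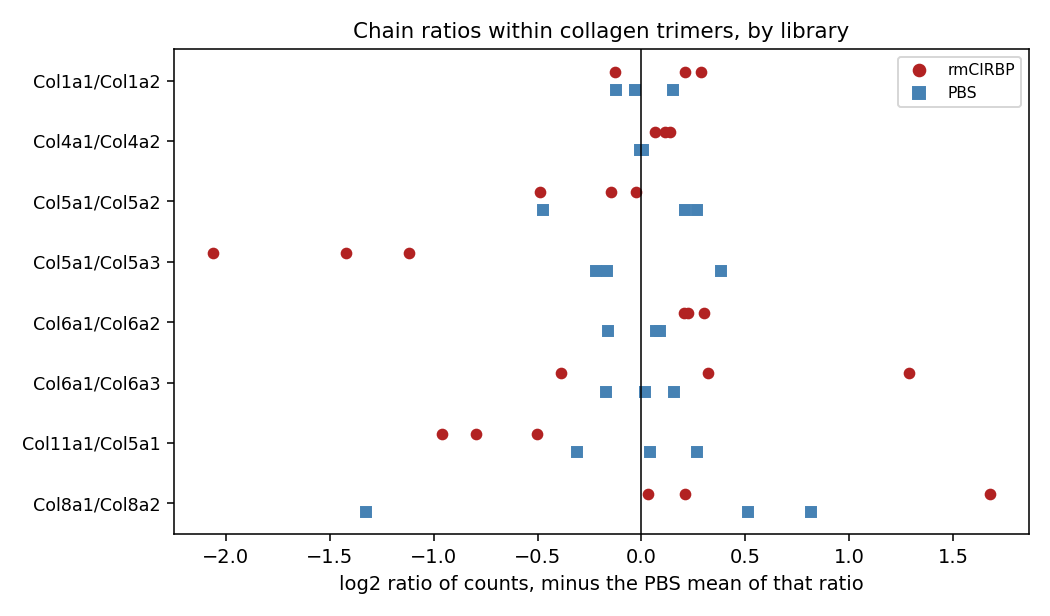
Log2 ratio of the counts of 2 chains in each library, minus the PBS mean of that ratio, for 8 pairs of chains that can share a trimer or fibril. Red circles are rmCIRBP libraries and blue squares PBS libraries, and the groups separate for Col4a1/Col4a2, Col5a1/Col5a3, Col6a1/Col6a2 and Col11a1/Col5a1.

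The genes that modify, export, process, bind, sense and degrade collagen were taken from 6 lists of 75 genes, of which 71 were tested. The lists were chosen with earlier results of these data known, so their shares cannot show an excess over all genes. Of the genes tested 8 rose and 6 fell, 11.3% and 8.45%, where 6.74% and 4.77% of all genes did, and the median log2 fold change was -0.03. These counts were 5 and 3 without rmCIRBP 1, 5 and 9 without rmCIRBP 3, 5 and 2 without PBS 2, and 6 and 3 without PBS 3. In the same order, those over all genes were 539 and 203, 839 and 548, 513 and 210, and 582 and 281. Among 18 tested modification and folding genes 2 rose and 2 fell. P4ha2, a prolyl hydroxylase subunit, was at 191, 237 and 165 CPM after rmCIRBP, against 75.2, 62.0 and 49.1 CPM after PBS (log2 fold change 1.67 with SE 0.19 and edgeR adjusted p = 0.00189). Hspa5, an endoplasmic reticulum chaperone, also rose, to 1099 ± 159 CPM after rmCIRBP, against 642 ± 157 CPM after PBS (SD, n = 3 each; log2 fold change 0.78 with SE 0.20 and edgeR adjusted p = 0.0456). Plod2, a lysyl hydroxylase, fell to 451 ± 43.1 CPM after rmCIRBP, against 647 ± 56.7 CPM after PBS (SD, n = 3 each; log2 fold change -0.52 with SE 0.13 and edgeR adjusted p = 0.0407). P3h2, a prolyl hydroxylase of basement membrane collagens, fell at low level, to 0.731 ± 0.148 CPM after rmCIRBP, against 2.21 ± 0.619 CPM after PBS (SD, n = 3 each; log2 fold change -1.59 with SE 0.37 and edgeR adjusted p = 0.0333). None of 9 export genes passed. Of 13 processing and cross-linking genes 2 rose and none fell, Adamts14, which trims the amino end of procollagen (log2 fold change 1.42 with SE 0.15 and edgeR adjusted p = 0.00110), and Tll1, which trims the carboxyl end (log2 fold change 0.59 with SE 0.14 and edgeR adjusted p = 0.0333). Of 12 fibril-binding genes, decorin (Dcn), which is also in the fibroblast list, rose to 238 ± 50.5 CPM after rmCIRBP, against 103 ± 34.3 CPM after PBS (SD, n = 3 each; log2 fold change 1.21 with SE 0.27 and edgeR adjusted p = 0.0261). Cthrc1, a secreted protein with a short collagen repeat, fell to 19.5 ± 4.48 CPM after rmCIRBP, against 80.2 ± 18.0 CPM after PBS (SD, n = 3 each; log2 fold change -2.04 with SE 0.22 and edgeR adjusted p = 0.00146).

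Some collagen receptors fell and some collagenases rose. Of 9 tested receptor and uptake genes, 3 fell and none rose. Itga11, the alpha subunit of a fibrillar collagen integrin, was at 6.18, 12.9 and 7.26 CPM after rmCIRBP, against 50.3, 59.5 and 35.6 CPM after PBS (log2 fold change -2.46 with SE 0.30 and edgeR adjusted p = 0.00251). Mrc2, the endocytic receptor that takes up collagen fragments, was at 395, 382 and 588 CPM after rmCIRBP, against 818, 960.3 and 1217 CPM after PBS (log2 fold change -1.13 with SE 0.22 and edgeR adjusted p = 0.0162). Cspg4, a proteoglycan that binds type VI collagen and is also a pericyte marker, was at 2.87, 1.88 and 1.83 CPM after rmCIRBP, against 5.16, 7.81 and 14.3 CPM after PBS (log2 fold change -2.05 with SE 0.41 and edgeR adjusted p = 0.0180). Of 10 tested proteases, the collagenases Mmp8 (log2 fold change 3.63) and Mmp13 (2.41) and the gelatinase Mmp9 (2.71) rose and none fell by the same edgeR test (adjusted p = 0.00195, 8.70e-04 and 0.00355 in that order). Mmp8 averaged 19.8 ± 6.74 CPM after rmCIRBP and 1.61 ± 0.918 CPM after PBS, Mmp13 23.8 ± 4.50 CPM after rmCIRBP and 4.45 ± 1.05 CPM after PBS and Mmp9 4.04 ± 0.872 CPM after rmCIRBP and 0.602 ± 0.204 CPM after PBS (SD, n = 3 each). More abundant proteases did not pass, such as Mmp14 at 462 ± 22.6 CPM after rmCIRBP and 543 ± 55.2 CPM after PBS (SD, n = 3 each). Mmp2, Ctsb and Ctsl did not pass either, and Ctsl and Fap were lower in every rmCIRBP library than in every PBS library. The 11 listed proteases summed to 2060 to 2746 CPM in the rmCIRBP libraries and 2566 to 3047 CPM in the PBS libraries, with the groups overlapping. Neutrophils and macrophages also make Mmp8 and Mmp9, and the 6 leukocyte and macrophage markers summed to 67.2 to 127 CPM in the rmCIRBP libraries and 113 to 146 CPM in the PBS libraries, of which Adgre1 rose and none fell, with Ptprc at most 4.27 CPM. Most of this sum was Lyz2, at 86.9, 91.7 and 44.5 CPM after rmCIRBP, against 92.7, 124 and 111 CPM after PBS. Adgre1, Csf1r and Itgam were instead higher in every rmCIRBP library than in every PBS library, and Ptprc and Cd68 overlapped. The part of neutrophils and macrophages in the rise of these proteases was not tested.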

How the data were processed

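RNA was sequenced from 3 rmCIRBP and 3 PBS libraries, prepared by the TruSeq mRNA method after polyA selection, as the labels' protocols state. The authors deposited raw counts per gene, and featureCounts, DESeq2 and R 4.1.2 are named with the builds GRCm38 and mm10 per the submitters' processing notes. Aligner, annotation release, strand setting and treatment of multi-mapping reads were not given in the sources used here, so reads of overlapping antisense genes cannot be told apart. Exons of 13 of the 44 chains overlap another gene.

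Genes were filtered with filterByExpr, scaled by TMM and tested with edgeR 4.0.16's quasi-likelihood F test in R 4.3.3 (two-sided, treatment only, Benjamini-Hochberg over 15801 genes). Errors of log2 fold changes are standard errors from the F statistic. Levels per kb use the union of exons in GENCODE M21 (GRCm38), in which all 44 chains had the same start and end. Members, lists and tests were chosen with earlier results of these data known. Full values are given for chains that passed, the most abundant per class and those of the ratio pairs. Alternatives were other scalings, filters, limma 3.58.1 voom, DESeq2 1.42.0, a replicate block and leaving out libraries. Scripts were tested on simulated data. No libraries were duplicates (chi-square per degree of freedom at least 15.3). Promoter windows are RefSeq's, for 35 of the chains.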

Additional observations from a re-analysis of the deposited data

How the results depend on the processing

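The 7 called chains kept their direction under all alternatives, and Col18a1 and Col11a1 kept their calls under all of them. The main test called 3 chains higher and 4 lower. Without a filter it called 6 and 7, DESeq2 called 7 lower, and the replicate block called 1 higher and 4 lower. Over all genes the main test called 1065 higher and 753 lower of 15801, and without a filter 1535 and 1072 of 28056. DESeq2 called 1446 and 1172 of 15801 genes, and the replicate block 792 and 466. The labels do not say whether replicate numbers pair the libraries. Same-number correlations of deviations were -0.11, -0.17 and 0.25, and the largest of all was 0.36, for rmCIRBP 2 with PBS 1. With 3 libraries in each group, these correlations cannot settle whether the libraries are paired. Under the block Col5a3, Col4a5 and Col12a1 were not called (edgeR adjusted p = 0.0621, 0.0805 and 0.101), and under limma voom Col4a4 was not (0.0647). Leaving out 1 library, or rmCIRBP 2 and PBS 1 together (chosen after seeing the data), gave 1 to 5 chains higher and 1 to 7 lower, and for the collagen machinery and receptors, 8 higher and 6 lower in the main test, 5 to 11 and 2 to 9. Without a filter 10 of those were lower. Over all genes, leaving out libraries in these ways gave 513 to 1669 higher and 203 to 1133 lower. The cause was not tested.

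Of the uncalled chains, 8 with log2 fold changes near 0 changed sign, and the cause was not tested. Col11a2 was -0.00475 with upper quartile scaling. When libraries were left out in the same way, the range was -0.0592 to 0.15 for Col11a2, -0.15 to 0.38 for Col6a1, -0.44 to 0.10 for Col6a2, -0.24 to 0.23 for Col5a2, -0.11 to 0.35 for Col3a1, -0.27 to 0.35 for Col8a1, -0.28 to 0.0187 for Col9a3 and -0.51 to 0.60 for Col28a1.

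With 1 library left out, the ratio difference ranged over -0.0335 to 0.80 for Col6a1/Col6a3, -0.0237 to 1.05 for Col8a1/Col8a2, 0.0421 to 0.25 for Col1a1/Col1a2 and -0.46 to -0.0867 for Col5a1/Col5a2, and kept its sign for all pairs but Col6a1/Col6a3 and Col8a1/Col8a2. The mean collagen share ranged over 3.58% to 3.81% after rmCIRBP and 3.94% to 4.31% after PBS. Low counts limit what can be said of the 12 chains below the filter and of Col4a3 and Col4a4.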
